A study of Homo sapiens with 2 samples.

Results

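The genes described here build the lipid-linked sugar precursor of N-glycosylation and transfer it to protein, and they were measured in GANAB-knockdown and control tumours of UMUC3, a human bladder carcinoma cell line. The 36 genes were chosen by symbol: 12 subunits of the oligosaccharyltransferase (OST) and 24 genes of precursor synthesis. All 36 were found among the 33538 genes of the count tables. The study comprised 1 single-cell RNA library of UMUC3 cells with a knockdown of GANAB and 1 library of control UMUC3 cells. Both were made from cells transplanted orthotopically into the bladders of C57 nude mice and grown there for 14 days. The labels give neither the method of the knockdown, nor whether either line was a clone, nor the number of mice. GANAB encodes the catalytic subunit of glucosidase II, which trims glucose from N-glycans after their transfer to protein, so the genes described act before it in the pathway.

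N-glycosylation begins on dolichol, a long isoprenoid lipid of the endoplasmic reticulum (ER) membrane. Sugars are added one by one on the cytosolic face, the intermediate is flipped, and mannose and glucose are added in the lumen from dolichol-linked donors. OST then transfers the finished oligosaccharide to asparagine residues of proteins entering the ER. Of its catalytic subunits, STT3A works in the complex that sits at the translocon (OST-A, with OSTC and KRTCAP2), and STT3B works in the complex that can act later (OST-B, with MAGT1 or TUSC3).

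The knockdown library held 132709954 unique molecular identifiers (UMIs) in 2672 cells, with a median of 40933 per cell, and the control library held 214188781 in 4385 cells, with a median of 44046. A barcode was taken as a cell with at least 15000 UMIs and at most 20% mitochondrial UMIs, and 4 barcodes passed in both libraries. Levels are in CPM, a gene's UMIs in all cells of a set per 1000000 UMIs of that set. They are not per length, so they compare cells and not genes. GANAB was at 42.3 CPM in knockdown cells and 127 CPM in control cells, a log2 ratio of -1.58 (95% interval -1.62 to -1.54), so the library labelled as the knockdown was lower by 2.99-fold. VIM, KRT8 and KRT18, expressed by the line, were at 5697, 195 and 273 CPM in knockdown cells and at 3548, 155 and 202 CPM in control cells. With KRT7, KRT19 and CAV1, these 6 line and epithelial markers summed to 7311 CPM in knockdown cells and 4254 CPM in control cells. By the size rule given below, 3 of the 5 measured were higher in knockdown cells, where 7.69% of all measured genes were. Their log2 ratios ranged from 0.34 to 1.72. The 6 markers of urothelial differentiation summed to 1.34 CPM in knockdown and 1.60 CPM in control cells. UPK3A, KRT20, the T cell gene CD3E and the fibroblast genes DCN and LUM were at 0 UMIs in both. Fibroblast markers, mostly collagens, summed to 10.7 CPM in knockdown cells and 14.8 CPM in control cells. Endothelial markers summed to 0.324 CPM in knockdown and 0.103 CPM in control cells. The 6 leukocyte markers summed to 25.01 CPM in knockdown and 26.8 CPM in control cells, nearly all of it CD68, with PTPRC at 0.0151 and 0.0373 CPM. The part of these markers in the ratios below was not tested.

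With 1 library in each group, the differences have no replicate check and no p-value, and all intervals are of counting error alone. Calls of higher or lower needed a ratio of 1.5-fold or more and an interval that excludes no difference, among genes of at least 10 CPM in either set of cells. The comparison was made over the whole libraries and again within cells with at least 2 UMIs of TMEM132D-AS1, a long noncoding RNA, here called TMEM132D-AS1+ cells. These were 1942 cells of the knockdown library and 241 of the control library, with 97701745 and 13672764 UMIs. Their median depth was 41100 UMIs in the knockdown and 51552 in the control library. Cells without a UMI of it numbered 616 in the knockdown library and 4102 in the control library, with medians of 42696 and 43787 UMIs. The RNA overlaps another gene in antisense, so its own counts are uncertain without the strand rule. Earlier results on these data placed the control cells that carry it near knockdown cells, and the last comparison set them against the control cells without it.

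Promoters of 6 of the genes are printed. ALG2, OST4 and KRTCAP2 had the 3 highest knockdown-over-control ratios among the measured genes, ALG3 and DPM1 had the 2 lowest, and the ALG12 window holds an element tied to ER stress. The sequences are from RefSeq (GRCh38.p14), 250 bases before to 50 after the start site, 5′ to 3′ on the gene's strand, which is the minus strand for all 6. Capitals mark matches to the motifs named after them. The windows are chr9:99221893-99222192 for ALG2, chr2:27071605-27071904 for OST4, chr1:155173255-155173554 for KRTCAP2, chr3:184249476-184249775 for ALG3, chr20:50958515-50958814 for DPM1 and chr22:49918389-49918688 for ALG12.
ALG2: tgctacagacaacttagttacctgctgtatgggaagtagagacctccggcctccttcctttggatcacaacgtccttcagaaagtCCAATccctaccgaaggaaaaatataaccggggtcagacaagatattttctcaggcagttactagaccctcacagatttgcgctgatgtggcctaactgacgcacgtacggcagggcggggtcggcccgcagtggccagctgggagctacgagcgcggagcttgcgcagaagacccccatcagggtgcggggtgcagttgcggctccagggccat
OST4: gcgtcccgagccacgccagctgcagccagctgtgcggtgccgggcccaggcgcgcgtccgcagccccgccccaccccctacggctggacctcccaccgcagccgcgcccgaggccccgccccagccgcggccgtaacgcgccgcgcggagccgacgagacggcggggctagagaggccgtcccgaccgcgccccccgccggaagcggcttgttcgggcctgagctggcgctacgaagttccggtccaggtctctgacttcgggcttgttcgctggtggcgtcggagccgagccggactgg
KRTCAP2: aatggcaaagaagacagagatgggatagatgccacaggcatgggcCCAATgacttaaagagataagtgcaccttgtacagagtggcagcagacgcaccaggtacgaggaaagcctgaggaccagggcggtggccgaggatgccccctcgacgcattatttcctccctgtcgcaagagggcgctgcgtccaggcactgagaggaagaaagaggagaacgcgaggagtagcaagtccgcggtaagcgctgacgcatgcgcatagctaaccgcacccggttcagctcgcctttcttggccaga
ALG3: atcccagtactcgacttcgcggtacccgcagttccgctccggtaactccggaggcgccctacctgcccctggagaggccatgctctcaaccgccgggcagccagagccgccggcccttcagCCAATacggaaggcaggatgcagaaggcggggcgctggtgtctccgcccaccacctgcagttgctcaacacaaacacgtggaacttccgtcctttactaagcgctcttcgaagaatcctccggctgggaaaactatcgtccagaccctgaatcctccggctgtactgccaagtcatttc
DPM1: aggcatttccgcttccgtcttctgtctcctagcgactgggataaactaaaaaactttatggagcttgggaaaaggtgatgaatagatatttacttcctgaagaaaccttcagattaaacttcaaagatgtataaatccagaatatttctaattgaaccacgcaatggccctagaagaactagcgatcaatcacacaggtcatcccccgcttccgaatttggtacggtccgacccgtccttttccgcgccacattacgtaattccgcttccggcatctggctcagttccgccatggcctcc
ALG12: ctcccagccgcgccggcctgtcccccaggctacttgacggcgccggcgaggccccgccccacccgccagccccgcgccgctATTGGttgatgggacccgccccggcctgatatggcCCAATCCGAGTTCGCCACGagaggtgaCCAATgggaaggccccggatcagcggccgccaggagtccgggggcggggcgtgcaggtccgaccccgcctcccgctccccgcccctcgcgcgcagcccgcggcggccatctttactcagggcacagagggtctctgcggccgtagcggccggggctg

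Windows for 33 of the 36 genes were searched on both strands for 5 motifs. The ER stress response element, CCAAT and CCACG spaced by 9 bases, was found in 1 of 33, ALG12, at 134 to 116 bases before the start, against 0.0769% of the 35116 windows of all genes. Its second form, ATTGG and CCACG spaced by 1 base, was in none of the 33 and in 0.0541% of all windows. The unfolded protein response core TGACGTGG was in 1, DHDDS, against 0.729%, and the YY1 motif GCCATNTTG was in 4 (ALG1, DOLK, MAGT1 and MPDU1), against 2.92%. The CCAAT box, which also forms part of the ER stress element, was in 18 of 33, against 34.6%. It lies 129 bases before the start of ALG3, 165 before that of ALG2 and 205 before that of KRTCAP2, and none of the 5 motifs matched the OST4 or DPM1 windows. A match describes letters in a window and not binding. Whether the ALG12 match belongs to ALG12 or to CRELD2, which overlaps the ALG12 annotation on the opposite strand, was not tested.

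Between the whole libraries, the median ratio and the summed level of the pathway's transcripts differed little, though single genes went both ways. Of the 36 genes, 30 reached 10 CPM in either library, and 2 of them, ALG3 and DPM1, were called lower, while 0 were called higher. Over all 7872 genes measured, 10.4% were called lower and 7.69% higher. The 2 called genes make up 6.67% of the 30, a share below the 18.1% of all measured genes called in either direction. The median log2 ratio of the 30 genes was -0.08, beside -0.07 over all measured genes, and their quartiles were -0.28 and 0.06. Taken without sign, the median log2 ratio was 0.21 over the 30 genes and 0.28 over all measured genes. Of the 30 ratios, 21 lay below 0 and 9 above, beside 4469 below and 3403 above over all measured genes. The counting interval lay wholly below 0 for 15 of the 30 and wholly above 0 for 8. The UMIs of all 36 genes summed to 2943 CPM in knockdown cells and 2986 CPM in control cells. These sums weigh abundant genes most, and OST4 alone held 587 CPM of the first and 416 CPM of the second.

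**Figure D1:**
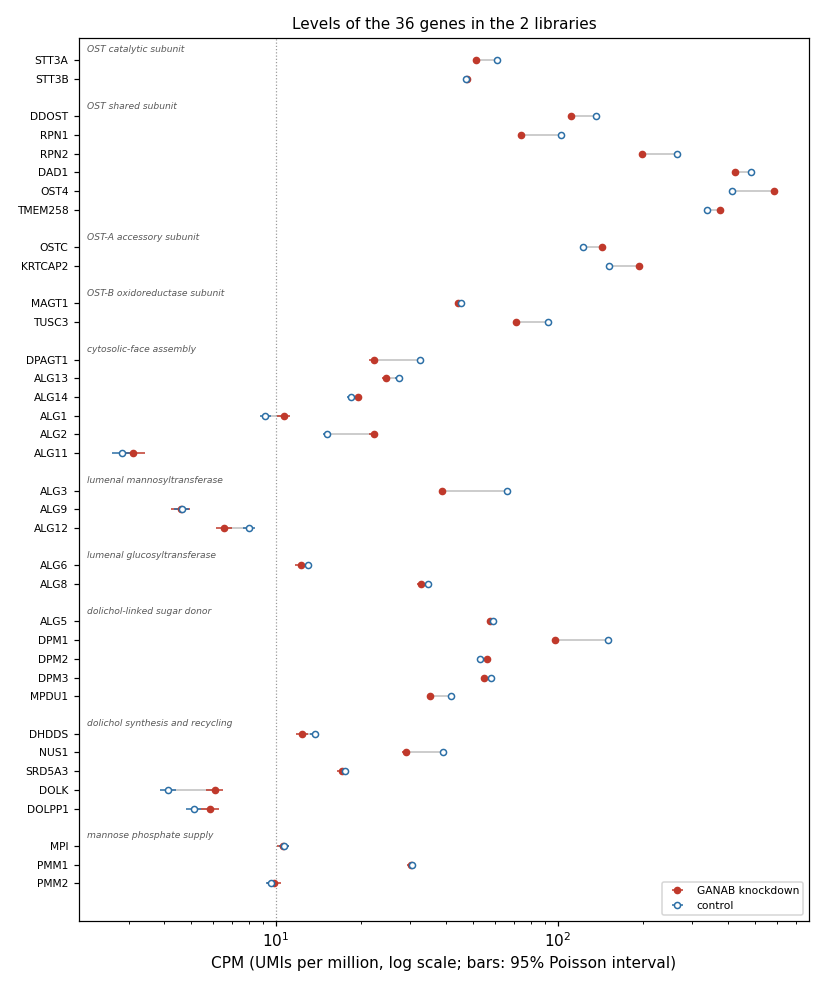
Level of each of the 36 genes in the GANAB-knockdown library (filled red) and the control library (open blue), in CPM on a log axis, with 95% Poisson intervals and the genes grouped by role; the dotted line marks 10 CPM. Most pairs lie close together, and the widest gaps are those of ALG3 (38.9 and 66.1 CPM in knockdown and control cells) and DPM1 (97.7 and 150.1 CPM), followed by ALG2, DOLK, DPAGT1 and OST4.

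Within OST, the shared subunits parted by gene. OST4, a very small subunit that helps hold the catalytic subunit in the complex, was at 587 CPM (95% Poisson interval 583 to 591) in knockdown cells and 416 CPM (413 to 418) in control cells. The log2 ratio was 0.50 (0.48 to 0.51), short of the 1.5-fold rule. TMEM258, another small shared subunit, was at 376 CPM in knockdown cells and 339 CPM in control cells, with a ratio of 0.15. The large ribophorins went the other way. RPN1 was at 74.1 CPM in knockdown cells and 103 CPM in control cells, and its log2 ratio was -0.47 (-0.51 to -0.44). RPN2 was at 199 CPM in knockdown cells and 265 CPM in control cells (log2 ratio -0.41, -0.43 to -0.39). DDOST, the OST48 subunit, was at 112 and 136 CPM (-0.29), and DAD1, first found as a defender against cell death, at 424 and 486 CPM (-0.20) in knockdown and control cells. None of the 12 subunits was called in either direction, where 18.1% of all measured genes were. OST4 and TMEM258 overlap AGBL5 (10.6 and 14.5 CPM in knockdown and control cells) and FEN1 (30.2 and 48.2 CPM) on the opposite strand, both lower in the knockdown library.

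The catalytic subunits did not differ alike. STT3A was at 51.4 CPM in knockdown cells and 60.9 CPM in control cells, and STT3B at 47.6 CPM in knockdown and 47.4 CPM in control cells. Their log2 ratios were -0.24 (-0.29 to -0.20) and 0.01 (-0.04 to 0.05). Among the UMIs of the pair, STT3A made up 51.9% of 13142 in knockdown cells (Clopper-Pearson 95% interval 51.0 to 52.8) and 56.2% of 23200 in control cells (55.6 to 56.9), a share that library scaling cannot change. In TMEM132D-AS1+ cells the shares were 52.3% (51.3 to 53.3) in the knockdown and 55.1% (52.6 to 57.6) in the control library, and these intervals overlap. The share also moved with depth. In cells of 30000 to 60000 UMIs it was 47.8% (46.4 to 49.2) in the knockdown and 56.4% (55.5 to 57.3) in the control library. The intervals overlapped in shallower cells, at 46.8% (44.3 to 49.3) in the knockdown and 47.7% (45.4 to 49.98) in the control library, and in deeper cells, at 56.2% (54.99 to 57.4) in the knockdown and 57.6% (56.6 to 58.5) in the control library. The 3′ end of STT3A overlaps the start of CHEK1 on the same strand in the annotation, and CHEK1, a cell cycle checkpoint kinase, was at 47.2 and 67.6 CPM in knockdown and control cells. The labels do not say how reads from the overlap were counted.

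The subunits that belong to one complex also parted. KRTCAP2 of OST-A was at 194 CPM in knockdown cells and 152 CPM in control cells (log2 ratio 0.35, 0.33 to 0.38). OSTC, its partner, was at 144 CPM in knockdown cells and 123 CPM in control cells (0.23, 0.21 to 0.26). In OST-B, the oxidoreductase MAGT1 was at 44.1 and 45.2 CPM in knockdown and control cells, with an interval that includes no difference (-0.08 to 0.01). Its paralog TUSC3 was at 70.9 CPM in knockdown cells and 91.9 CPM in control cells (-0.37, -0.41 to -0.34). Of the UMIs of the 6 complex-specific genes, STT3A, OSTC and KRTCAP2 together held 70.5% in knockdown cells (70.2 to 70.9) and 64.5% in control cells (64.2 to 64.8). In TMEM132D-AS1+ cells these shares were 70.3% (69.9 to 70.7) in the knockdown and 67.0% (65.9 to 68.1) in the control library. UMIs count transcripts and not assembled complexes.

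On the cytosolic face, DPAGT1 and ALG2 differed most. DPAGT1, the target of tunicamycin, adds the first sugar to dolichol phosphate. It was at 22.3 CPM in knockdown cells and 32.4 CPM in control cells, with a log2 ratio of -0.54 (-0.60 to -0.48) just short of the rule. ALG2, a mannosyltransferase, was at 22.3 CPM in knockdown cells and 15.2 CPM in control cells (0.55, 0.48 to 0.63), just short on the other side. ALG13 and ALG14, which together add the second sugar, were at 24.5 and 19.5 CPM in knockdown cells and 27.2 and 18.5 CPM in control cells. ALG1, which adds the first mannose, was at 10.7 CPM in knockdown cells and 9.16 CPM in control cells. ALG11, which adds the last mannoses on this face, stood under 10 CPM with 412 UMIs in knockdown cells and 611 in control cells.

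In the lumen, ALG3 had the lowest ratio of the measured genes. ALG3 uses dolichol phosphate mannose to add the first lumenal mannose. It was at 38.9 CPM (37.8 to 40.0) in knockdown cells and 66.1 CPM (65.0 to 67.2) in control cells, with a log2 ratio of -0.77 (-0.81 to -0.72), 1.70-fold lower. The later mannosyltransferases ALG9 and ALG12 were at 4.59 and 6.55 CPM in knockdown cells and 4.63 and 8.04 CPM in control cells, too low to be measured by the rule. ALG6 and ALG8, which add the first and the next glucose, were at 12.3 and 32.6 CPM in knockdown cells and 12.9 and 34.6 CPM in control cells, with log2 ratios of -0.07 and -0.08. Within TMEM132D-AS1+ cells ALG8 was at 31.9 CPM in knockdown cells and 39.9 CPM in control cells (-0.32, -0.45 to -0.19). The ALG12 annotation overlaps CRELD2, an ER chaperone-like gene on the opposite strand at 30.2 and 41.2 CPM in knockdown and control cells.

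Among the genes of the sugar donors, DPM1 stood apart from its partners. DPM1 is the catalytic subunit of dolichol phosphate mannose synthase, and DPM2 and DPM3 anchor and stabilise it in the membrane. DPM1 was at 97.7 CPM (96.0 to 99.4) in knockdown cells and 150.1 CPM (148 to 152) in control cells, with a log2 ratio of -0.62 (-0.65 to -0.59), 1.54-fold lower. Its call ended with median-of-ratios scaling (-0.55), in cells without TMEM132D-AS1 (-0.49) and in cells with MKI67 or TOP2A (-0.55), where ALG3 was still called lower. DPM2 was at 56.3 and 52.8 CPM and DPM3 at 54.8 and 57.9 CPM in knockdown and control cells, with log2 ratios of 0.09 and -0.08. ALG5, which makes dolichol phosphate glucose, was at 57.4 CPM in knockdown cells and 58.7 CPM in control cells. MPDU1, needed for the use of both donors, was at 35.3 CPM in knockdown cells and 41.6 CPM in control cells (-0.24, -0.29 to -0.19).

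In dolichol synthesis, 0 of the 3 measured genes were called, where 18.1% of all measured genes were. NUS1, the partner subunit of the cis-prenyltransferase DHDDS, was at 28.9 CPM in knockdown cells and 39.02 CPM in control cells (log2 ratio -0.43, -0.49 to -0.38). DHDDS itself was at 12.3 CPM in knockdown cells and 13.7 CPM in control cells (-0.15, -0.24 to -0.06), and the polyprenol reductase SRD5A3 at 17.2 CPM in knockdown and 17.5 CPM in control cells. The kinase DOLK and the phosphatase DOLPP1 stayed under 10 CPM, at 6.07 and 5.85 CPM in knockdown cells and 4.14 and 5.10 CPM in control cells. The log2 ratio of DOLK was 0.55 (0.41 to 0.69), wider than that of NUS1. For mannose supply, MPI was at 10.6 and 10.7 CPM, PMM1 at 30.1 and 30.3 CPM, and PMM2, the main phosphomannomutase of this pathway, at 9.83 and 9.61 CPM in knockdown and control cells. The 3 intervals of this group included no difference.

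**Figure D2:**
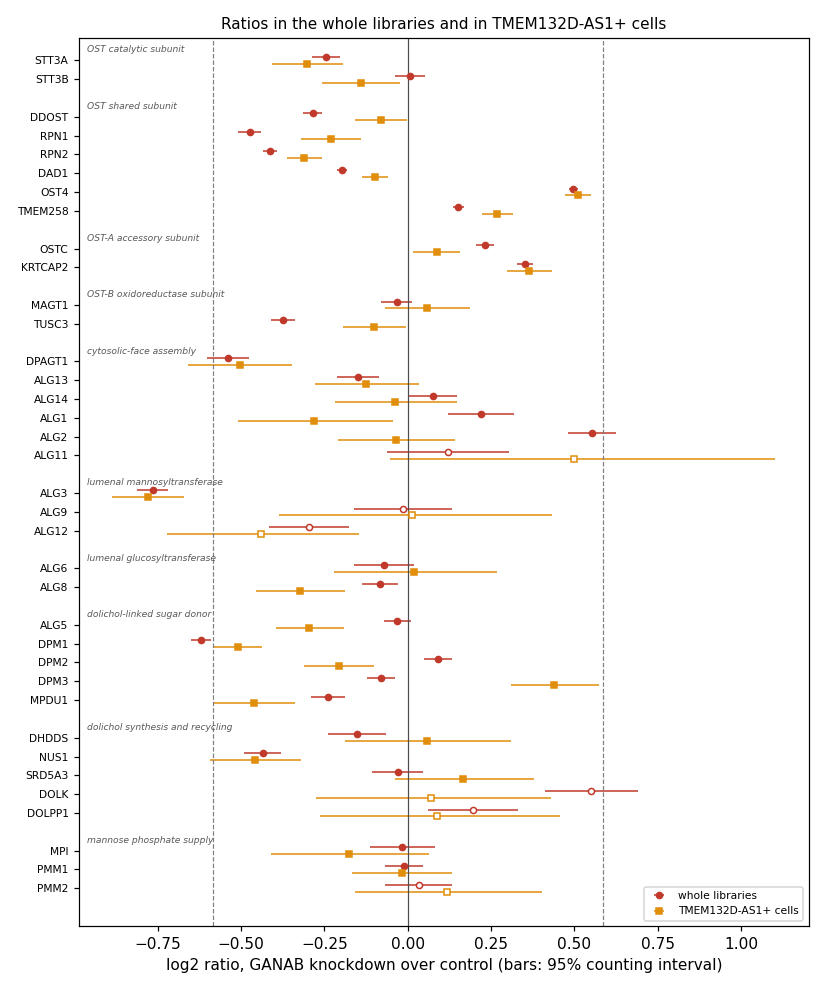
Log2 ratio of GANAB knockdown over control for each gene in the whole libraries (red circles) and in TMEM132D-AS1+ cells (orange squares), with 95% counting intervals; open symbols are genes under 10 CPM and dashed lines mark 1.5-fold. ALG3 lies beyond the line in both (-0.77 and -0.78), whereas ALG2 lies at 0.55 in the whole libraries and at -0.04 in TMEM132D-AS1+ cells.

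Within TMEM132D-AS1+ cells, ALG3 was the 1 gene called. It was at 37.6 CPM (36.4 to 38.8) in knockdown cells and 64.5 CPM (60.3 to 68.9) in control cells, with a log2 ratio of -0.78 (-0.89 to -0.67). Over the 7720 genes measured in these cells, 4.59% were called lower and 3.58% higher, 8.16% in all, and the 1 gene is 3.33% of the 30 measured. The median of the 30 genes was -0.11, beside -0.09 over all genes. Taken without sign, it was 0.22 over the 30 genes and 0.20 over all genes, so they differed about as much as all genes did. GANAB was at 38.1 CPM in these knockdown cells and 130 CPM in these control cells.

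Several ratios were close to those of the whole libraries. OST4 was at 592 CPM in TMEM132D-AS1+ knockdown cells and 416 CPM in such control cells (log2 ratio 0.51, 0.47 to 0.55). In these knockdown and control cells, KRTCAP2 was at 186 and 144 CPM (0.37), DPAGT1 at 21.0 and 29.8 CPM (-0.50), NUS1 at 27.5 and 37.7 CPM (-0.46) and DPM1 at 94.2 and 134 CPM (-0.51, -0.58 to -0.44). DPM1 was thus no longer past 1.5-fold. Other ratios were nearer to 0. RPN1 was at 72.9 CPM in these knockdown cells and 85.4 CPM in these control cells (-0.23), DDOST at 105 and 111 CPM (-0.08), TUSC3 at 71.7 and 76.9 CPM (-0.10) and ALG2 at 21.9 and 22.5 CPM (-0.04, -0.21 to 0.14). ALG1 stood at 10.9 CPM in these knockdown cells and 13.2 CPM in these control cells (-0.28, -0.51 to -0.04), on the other side of 0 from its whole-library ratio of 0.22. DPM3, at 51.3 CPM in these knockdown cells and 37.8 CPM in these control cells (0.44, 0.31 to 0.57), and DPM2, at 54.5 and 63.0 CPM (-0.21, -0.31 to -0.10), also crossed 0 from whole-library ratios of -0.08 and 0.09. MPDU1 (34.4 and 47.4 CPM, -0.46) and ALG5 (54.5 and 66.8 CPM, -0.29) stood farther from 0 than in the whole libraries, as ALG8 did. The comparisons share cells, and the differences between them were not tested. Fibroblast markers summed to 12.1 CPM in TMEM132D-AS1+ knockdown cells and 24.0 CPM in such control cells, and leukocyte markers, in the control cells CD68 alone, to 25.1 CPM in the knockdown and 41.8 CPM in the control cells. Their part in these ratios was not tested. Nor was that of depth, with medians of 41100 UMIs in these knockdown cells and 51552 in these control cells.

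Inside the control library, TMEM132D-AS1+ cells differed from cells without this RNA in 2 of the 30 measured genes by the rule. ALG2 was higher, at 22.5 CPM (20.01 to 25.1) in TMEM132D-AS1+ cells and 14.6 CPM (14.1 to 15.2) in the others, a log2 ratio of 0.62 (0.44 to 0.79). DPM3 was lower, at 37.8 CPM (34.6 to 41.2) in TMEM132D-AS1+ cells and 59.3 CPM (58.3 to 60.4) in the others (-0.65, -0.78 to -0.52). Of 7748 genes measured in this comparison, 4.65% were called higher and 4.47% lower, 9.11% in all, beside 6.67% of the 30. ALG1 was at 13.2 CPM in TMEM132D-AS1+ cells and 8.90 CPM in the others (0.57, 0.34 to 0.79), short of the rule. In cells with and without this RNA, ALG3 (64.5 and 66.3 CPM) and OST4 (416 and 415 CPM) had intervals that included no difference. These are cells of 1 library and no replicates of a condition. When 1 UMI was enough to count a cell as TMEM132D-AS1+, both fell just under the rule, with ALG2 at 21.8 CPM with and 14.6 CPM without the RNA (1.49-fold) and DPM3 at 39.6 CPM with and 59.3 CPM without it (1.498-fold lower). The TMEM132D-AS1+ control cells were deeper, with a median of 51552 UMIs beside 43787 in the others. Over all control cells, DPM3 was at 82.9 CPM below 30000 UMIs, 60.3 CPM up to 60000 and 49.3 CPM above. The part of depth in these ratios was not tested.

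The 4 sets of cells sorted the genes into patterns. OST4 was at 592 and 571 CPM in knockdown cells with and without TMEM132D-AS1, and at 416 and 415 CPM in control cells with and without it, so it parted by library. ALG3 did the same in the other direction, at 37.6 and 43.8 CPM in the 2 knockdown sets and 64.5 and 66.3 CPM in the 2 control sets. ALG2 was at 21.9 and 23.2 CPM in the knockdown sets and at 22.5 and 14.6 CPM in the control sets, so the control cells without TMEM132D-AS1 stood alone. DPM3 was at 51.3 and 65.4 CPM in the knockdown sets and at 37.8 and 59.3 CPM in the control sets, lower with TMEM132D-AS1 in both libraries. RPN1 was at 72.9 and 77.3 CPM in the knockdown sets and at 85.4 and 104 CPM in the control sets, again lower with TMEM132D-AS1 in both.

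**Figure D3:**
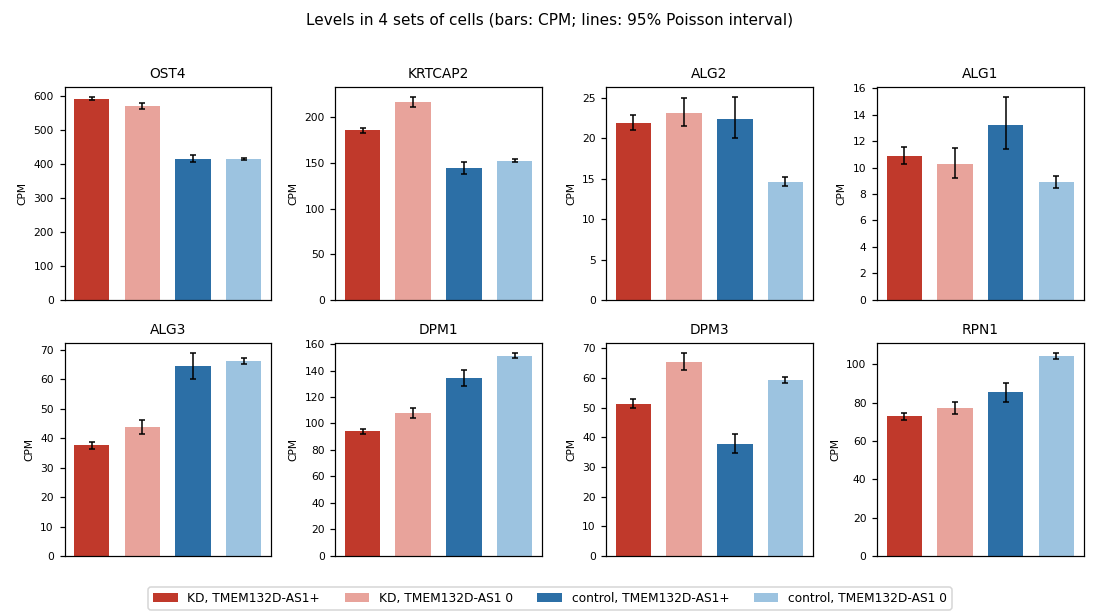
Level in CPM of 8 genes in knockdown cells with (dark red) and without (light red) TMEM132D-AS1 and in control cells with (dark blue) and without (light blue) it; lines are 95% Poisson intervals. OST4 and KRTCAP2 are higher and ALG3 and DPM1 lower in both knockdown sets than in both control sets, while ALG2 is low in the control cells without TMEM132D-AS1 alone (14.6 CPM).

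Position on the chromosome gave a second view of these patterns. For each gene, the 10 measured genes on each side were taken from the GENCODE release 29 annotation of GRCh38. ALG2 lies on chromosome 9 (99216426 to 99221956), and its 20 neighbours had a median log2 ratio of 0.46 in the whole libraries, 0.48 in the control cells with over without TMEM132D-AS1, and -0.03 within TMEM132D-AS1+ cells. The gene's own ratios were 0.55, 0.62 and -0.04. ALG1 on chromosome 16 (5033923 to 5087379) had neighbours at 0.22, 0.38 and -0.13, beside its own 0.22, 0.57 and -0.28. Not every gene with raised neighbours was raised. In the whole libraries ALG8 stood at -0.08 beside neighbours at 0.34, ALG13 at -0.15 beside 0.31 and SRD5A3 at -0.03 beside 0.21. DPM2 was above 0 but below its neighbours, at 0.09 beside 0.20. In the control cells with over without TMEM132D-AS1, ALG8 stood at 0.22 beside 0.40, ALG13 at 0.06 beside 0.20, SRD5A3 at -0.17 beside 0.33 and DPM2 at 0.27 beside 0.24. The neighbours of ALG3 on chromosome 3 (184242301 to 184249548) were at -0.19 in the whole libraries, against -0.77 for ALG3. Those of DPM1 on chromosome 20 (50934867 to 50958555) were at 0.0032, against -0.62, and those of OST4 on chromosome 2 (27070472 to 27071773) at -0.06, against 0.50. DPM3 and KRTCAP2 lie close together on chromosome 1 (155139891 to 155140595 and 155169408 to 155173475). In the control cells with over without TMEM132D-AS1 they stood at -0.65 and -0.08, both below neighbours at -0.04. Across the 30 measured genes, a gene's ratio and its neighbours' median had a Pearson r of 0.44 (Spearman rho 0.37) in the whole libraries and 0.61 (0.47) between the control sets. The points share cells, and some share neighbours.

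**Figure D4:**
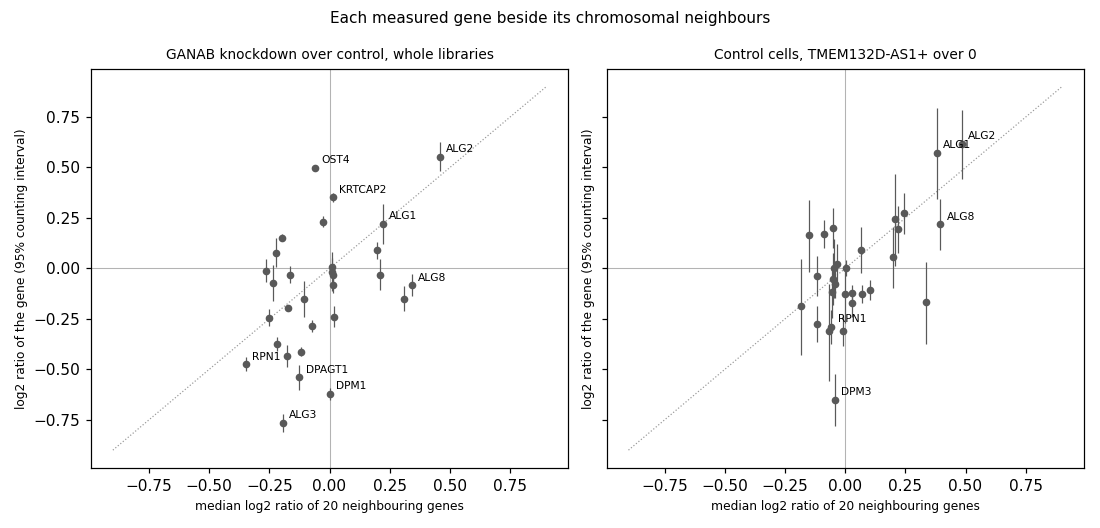
Log2 ratio of each of the 30 measured genes (vertical axis, with 95% counting intervals) against the median log2 ratio of its 20 nearest measured genes (horizontal axis), for knockdown over control in the whole libraries (left) and for control cells with over without TMEM132D-AS1 (right); the dotted line marks equal values. ALG2 lies near the line in both panels, while ALG3, DPM1 and OST4 on the left and DPM3 on the right lie far from it.

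Levels were also set side by side for cells with and without a UMI of MKI67 or TOP2A, genes of dividing cells. Cells with one numbered 1354 of 2672 in the knockdown and 2761 of 4385 in the control library. By the size rule, 4 of 31 measured genes of the pathway (DPAGT1, DPM1, MPDU1 and PMM2) were higher in such knockdown cells and 1 of 30 (PMM2) in such control cells. These shares lie below the 21.3% and 16.8% of all genes called in either direction. The split followed depth, with medians of 56066 UMIs in cells with and 32649 in cells without in the knockdown library, and 53553 and 33437 in the control library. Free RNA held MKI67 and TOP2A too, at 166 CPM in the knockdown and 210.5 CPM in the control library, beside 241 and 251 CPM in the cells, and cells were not classed as dividing from this split. DPM1 was at 111 CPM with and 73.5 CPM without in the knockdown library, and at 162 and 119 CPM in the control library. Within cells of 30000 to 60000 UMIs, a band chosen after seeing the data, DPM1 stood at 96.2 and 75.4 CPM with and without in the knockdown library (log2 ratio 0.35, 0.27 to 0.44) and at 156 and 120.4 CPM in the control library (0.37, 0.32 to 0.42). MPDU1 stood there at 34.2 and 23.9 CPM in the knockdown library (0.52) and at 43.9 and 29.7 CPM in the control library (0.56). None of the 4 genes reached 1.5-fold in that band in either library.

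Knockdown-over-control ratios were also taken in cells without either RNA, 1318 of the knockdown and 1624 of the control library. There ALG3 had a log2 ratio of -0.88, DPM1 of -0.69 and DPAGT1 of -0.65, all called lower, and ALG2 of 0.64, called higher. In cells with one the values were -0.69, -0.55, -0.45 and 0.51, and ALG3 was the 1 called. The share of all genes called between the libraries was not computed for either set of cells. Over 3 bands of depth, with limits at 30000 and 60000 UMIs, ALG3 had log2 ratios of -0.79, -0.83 and -0.73 and OST4 of 0.40, 0.48 and 0.55 from the shallowest to the deepest. STT3A was less even, at 0.02, -0.38 and -0.20, and MAGT1 stood at 0.26, 0.14 and -0.27. Barcodes of 10 to 100 UMIs, which mostly hold free RNA, had OST4 at 660 CPM in the knockdown and 464 CPM in the control library, and ALG3 at 28.6 CPM in the knockdown and 55.2 CPM in the control library. Of the 30 measured genes, 26 had a free RNA ratio of the same sign as in the cells. ALG14, MPI, ALG2 and STT3B did not. ALG2 was at 15.1 CPM in knockdown and 15.8 CPM in control free RNA, and STT3B at 41.4 and 56.4 CPM, a log2 ratio of -0.45 (-0.72 to -0.17) against 0.01 in the cells.

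Neighbouring pathways differed more than the 36 genes in some cases. Of 10 measured genes that feed or complete precursor synthesis, 1 was called higher and 1 lower, with a median log2 ratio of -0.25. Over all measured genes, 7.69% were called higher and 10.4% lower, 18.1% in all, so this count lies near the share of all genes. ALG10B, which adds the last glucose and has a near-identical copy ALG10 that makes its count uncertain, was at 10.5 CPM in knockdown cells and 6.02 CPM in control cells. GFPT2, which starts hexosamine synthesis, was at 2.99 CPM in knockdown cells and 16.4 CPM in control cells. Both also differed inside the control library, where ALG10B was at 10.2 and 5.74 CPM and GFPT2 at 6.22 and 17.1 CPM in cells with and without TMEM132D-AS1. Of 5 measured enzymes that use dolichol phosphate mannose for other glycans, 0 were called, where 18.1% of all genes were, with a median of 0.23.

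The translocon and its TRAP complex, to which OST-A docks, had 2 of 15 measured genes lower, where 10.4% of all genes were, SSR3 (196 and 320 CPM) and the signal peptidase subunit SEC11C (76.1 and 132 CPM in knockdown and control cells), and a median of -0.01. The glucosidase and calnexin cycle, which follows transfer, had 4 of 14 lower (GANAB, PRKCSH, CALR and LMAN1) and a median of -0.21. GANAB, the gene knocked down, is counted among these 4. ER chaperones had 6 of 14 lower, and a median of -0.54. HSPA5 was at 466 and 806 CPM, P4HB at 96.9 and 155 CPM, HERPUD1 at 84.8 and 148 CPM and PDIA4 at 88.2 and 137 CPM in knockdown and control cells. The early isoprenoid pathway, whose product farnesyl diphosphate is also the start of dolichol, had 8 of 10 lower and a median of -1.04. FDPS, which makes it, was at 73.1 CPM in knockdown cells and 168 CPM in control cells. The 3 measured genes of dolichol synthesis itself ranged from -0.43 (NUS1) to -0.03 (SRD5A3), with 0 called, where 18.1% of all genes were. DOLK (0.55) and DOLPP1 (0.20) were under 10 CPM and could not be called. Within TMEM132D-AS1+ cells the lists of translocon, glucosidase cycle, chaperones and isoprenoid pathway had 0, 3, 2 and 6 genes lower, where 4.59% of all genes were. The 3 again include GANAB. No test was made of the difference between lists.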

How the data were processed

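UMI counts of 2 libraries were analysed, 1 per group. The deposited matrices hold raw counts per gene and barcode made by the authors with Cell Ranger 3.1.0, per the file headers, on GRCh38, per the submitters' processing notes. The sources used here do not give the annotation release, the strand rule or the treatment of mouse reads, and the matrices list all 6794880 barcodes. UMIs were summed over cells of at least 15000 UMIs and at most 20% mitochondrial UMIs, and no doublets were removed. Intervals (95%) are exact conditional binomial for ratios, exact Poisson for levels and Clopper-Pearson for shares, computed with Python 3.11.15, numpy 2.4.6, scipy 1.17.1 and pandas 2.3.3. No test was possible, so features were called by size. The code was tested on simulated counts. The 36 genes, lists and rules were chosen with earlier results of these data known. Values are given for GANAB, the OST subunits, each called gene and the 4 highest and 4 lowest ratios, and other genes of the pathway more briefly. The genes named in the text on MKI67 or TOP2A, depth and cell sets beyond these were chosen after their values were seen. Positions were matched by identifier to GENCODE release 29 for 33456 genes. Alternatives covered scaling, level and cell filters, cell weighting, cells with or without MKI67 or TOP2A, the TMEM132D-AS1 minimum and the fold.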

Additional observations from a re-analysis of the deposited data

How the results depend on the processing

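ALG3 was called lower in the whole libraries and in TMEM132D-AS1+ cells under each setting run other than a fold of 2, at which 0 genes were called in any of the 3 comparisons. With calls from a log2 ratio of 0.32 in size, 10 genes were called in the whole libraries (3 higher, 7 lower) and 9 in TMEM132D-AS1+ cells. At settings other than the main one, the share of all genes called was not computed. The counts of called genes in this section therefore cannot be set against a share of all genes. With median-of-ratios scaling, DPM1 lost its call and ALG2 was called higher in the whole libraries, so the count stayed 2, ALG2 was also called higher with cells weighted equally (3 called), and OST4 joined ALG3 in TMEM132D-AS1+ cells (2 called); the median of the genes was then -0.0051 in the whole libraries. That median was -0.20 at a minimum of 50 CPM, -0.13 in cells without MKI67 or TOP2A, and -0.011 in cells without TMEM132D-AS1, a setting chosen after seeing the data, in which DPM1 also lost its call. Without MKI67 or TOP2A, 4 genes were called in the whole libraries and 3 in TMEM132D-AS1+ cells, and with either, 1 was called in the whole libraries. Inside the control library, 1 gene was called at 50 CPM and 0 with a minimum of 1 TMEM132D-AS1 UMI, where ALG2 (1.49-fold) and DPM3 (1.498-fold lower) lay just under the rule. The STT3A share was 49.4% in knockdown and 55.0% in control cells with cells weighted equally, 47.2% and 53.7% without MKI67 or TOP2A, 54.0% and 57.0% with either, and 57.0% in control cells of at least 30000 UMIs; by depth, in bands chosen after seeing the data, it was 46.8% and 47.7% below 30000 UMIs, 47.8% and 56.4% up to 60000 and 56.2% and 57.6% above, with overlapping intervals in the first and last. The cause of these shifts was not tested. Of 30 measured genes, 19 kept the sign of their whole-library ratio in the 10 settings that change scaling or cells, and the 11 others had whole-library ratios between -0.15 and 0.08. No paired analysis was possible because each group has 1 library, and no library could be left out. Genes under 10 CPM are limited by depth, as ALG11 had 29 UMIs in TMEM132D-AS1+ control cells.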
